A study of Arabidopsis thaliana with 24 samples.

Results

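Wild-type Arabidopsis roots of the accession Wassilewskija (WS) that never left the ground were compared between the launch sites of 2 suborbital flights. Of the 24 root libraries in the series, the 6 used here are the WS ground controls, 3 for Blue Origin (BO) and 3 for Virgin Galactic (VG). The libraries were taken by their labels, while the comparison and the gene lists were chosen with earlier results of these data known. The VG seedlings were 10 days old, for a flight in 2018 from Mojave, and were kept at ambient conditions beneath a bank of LEDs in the payload facility. The BO seedlings were 11 days old, for a flight in 2019 from West Texas, and stayed in a Danby herb growth cabinet set to 26 °C until they were fixed, 1 h after the flown seedlings were. No such interval was found in the labels for the VG ground seedlings. All were labelled wild type and had earlier grown upright on the same sucrose medium in a 19 ± 2 °C growth room in continuous fluorescent light of about 80 µmol m-2 s-1. They were fixed in RNALater, and RNA of dissected whole roots was made into poly(A) libraries. Site, year, age, light, temperature and harvest differ together between the groups and cannot be told apart.

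Replicates of a condition came from roots fixed in one fixation tube, so p-values measure the spread between these samples, which may be partly technical. In RNA from whole roots, fewer cells of a type and less RNA per cell cannot be told apart. Between 20710 and 21555 genes lay above 0 in each of the 6 libraries, and log2 values correlated at 0.958 to 0.976 within a site and 0.857 to 0.903 between sites. Read totals are not given, so depth is unknown. As a rough scale, in the authors' deposited table of mean counts 1 FPKM corresponded to a median of 31 counts per kilobase of transcript (quartiles 25.7 and 34.7, 1154 genes). Of 18 WS and sku5 libraries fitted together, 3 stood apart on the third principal component (7.48% of the variance): WS flown VG replicate 2, and the third flown and the third ground replicate of sku5, a root-skewing mutant. None is among the 6 compared, and without them more genes were called on the ground (7610).

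Roots meet microbes, wounds and handling with a set of fast transcription factors of the WRKY, ERF and zinc finger families, and with indole compounds made from tryptophan, camalexin and the indole glucosinolates. Light that reaches roots acts through HY5 on flavonoid and plastid genes. Roots short of iron, copper, phosphate, sulfate or nitrate raise transporters and reductases specific to each, and cells short of sugar raise a set of dark-inducible genes for the breakdown of amino acids.

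Expression was given as FPKM, a length- and library-scaled fragment count, and tested as log2(FPKM + 1) with limma, so the change of low genes is understated. Standard errors come from the spread pooled over all 18 libraries, with 3 a group, and a lone value in parentheses after a gene is its log2 change, BO minus VG. Of 20127 genes tested, 6481 (32.2%) were called at an adjusted p under 0.05. At BO 3407 (16.9%) were higher and 3074 (15.3%) lower, and 8503 passed an unadjusted p under 0.05. The median change of all tested genes was 0.04. Called changes of at least 1 log2 unit numbered 1436 upward (7.13%) and 1516 downward (7.53%). Called changes of at least 3 log2 units were fewer upward, 74 genes (0.368%), than downward, 161 (0.8%). The groups did not overlap at all for 10056 genes (50.0%), with BO above for 5342 (26.5%) and below for 4714 (23.4%).

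**Figure D1:**
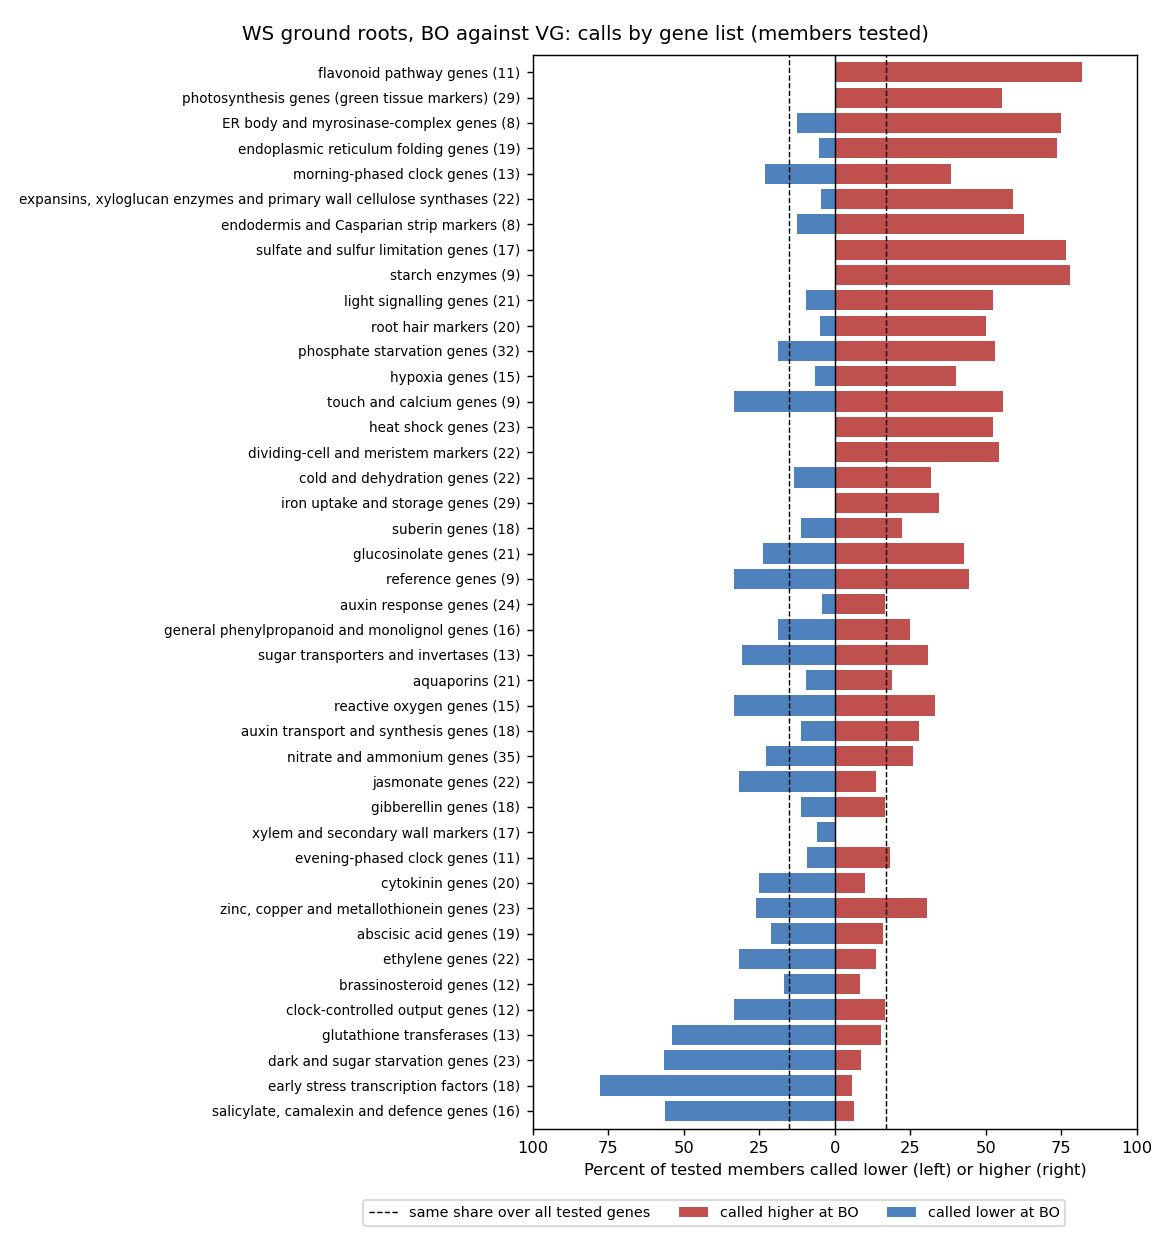
Percent of the tested members of each gene list with 8 or more tested members that were called higher (right, red) or lower (left, blue) in BO than in VG ground roots, in order of the median log2 change. Dashed lines mark the same shares over all tested genes, 16.9% higher and 15.3% lower; over the members that passed the filter on low values, flavonoid genes head the order and defence genes end it.

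Genes of the camalexin and salicylate branches of defence were lower at BO. Of 20 members 16 passed the filter on low values, and of these 9 were lower and 1 higher. The median was -1.73 over those 16, against 0.04 for all genes, and -0.30 over all 20 members with no filter. CYP71A12 (AT2G30750), a P450 of the indole acetaldoxime pathway to camalexin and related nitriles, had the largest decrease among the genes named by size. It stood at 3.86, 1.59 and 1.22 FPKM at BO and 316, 371 and 261 FPKM at VG (log2 change -6.69 ± 0.53 (SE), limma adjusted p = 1.43e-07). Every VG library was far above every BO library. Its neighbour CYP71A13, of the same pathway, was at 0, 0.13 and 0 FPKM at BO and 33.0, 57.6 and 22.3 FPKM at VG (log2 change -5.11 ± 0.51 (SE), limma adjusted p = 1.86e-06). WRKY33, which activates camalexin genes, was at 29.9, 28.8 and 30.9 FPKM at BO and 199, 238 and 230.4 FPKM at VG (log2 change -2.85 ± 0.25 (SE), limma adjusted p = 4.21e-07). WRKY70, a regulator between salicylate and jasmonate responses, was at 6.72, 11.5 and 9.13 FPKM at BO and 150.1, 149.6 and 146 FPKM at VG (log2 change -3.91 ± 0.39 (SE), limma adjusted p = 1.68e-06). For both factors the highest BO library lay far below the lowest VG library. SARD1, which with CBP60g activates salicylate synthesis, was at 0.21, 0.44 and 0.41 FPKM at BO and 13.8, 19.3 and 19.0 FPKM at VG (log2 change -3.75 ± 0.24 (SE), limma adjusted p = 1.76e-08). PBS3, an enzyme of salicylate synthesis outside the list, was at 0.20, 0.40 and 0.31 FPKM at BO and 54.7, 50.0 and 46.0 FPKM at VG (log2 change -5.30 ± 0.33 (SE), limma adjusted p = 1.71e-08). PAD3, FMO1, PAD4 and CBP60G were also lower, whereas EDS5, the salicylate precursor exporter, was the 1 member higher (log2 change 0.77), a call that held with VG ground replicate 2 left out and was lost when any other of the 6 libraries was. The late salicylate and jasmonate markers PR1, BGL2, PR5 and PDF1.2 did not pass the filter on low values.

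The indole glucosinolate genes went both ways. Of 21 tested glucosinolate genes, 9 were higher and 5 lower (median 0.38). The 5 lower were regulators and late enzymes of the indolic branch. MYB51, a main activator of indole glucosinolate synthesis, was at 4.92, 6.13 and 3.79 FPKM at BO and 116, 129 and 141 FPKM at VG (log2 change -4.46 ± 0.24 (SE), limma adjusted p = 3.82e-09). Its relative MYB122 was at 1.51, 1.48 and 3.24 FPKM at BO and 32.5, 36.9 and 32.4 FPKM at VG (log2 change -3.55 ± 0.32 (SE), limma adjusted p = 6.96e-07). CYP81F2, which hydroxylates indole glucosinolates for defence at the cell surface, was at 7.24, 2.31 and 3.31 FPKM at BO and 199, 203 and 223 FPKM at VG (log2 change -5.41 ± 0.39 (SE), limma adjusted p = 5.75e-08). For all of them the lowest VG library was several times the highest BO library. IGMT1 and IGMT2, which methylate the product of CYP81F2, were lower too, but they share 12.1% and 35.4% of their 50-base words with other genes, so reads may be split between them. Among the 9 higher were MYB34, a further indolic regulator (1.72), MYB28, of the aliphatic branch (1.01), and CYP81F4 (2.12). Indolic regulators were thus found in both directions.

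The early stress transcription factors, immediate responders to wounding, elicitors and oxidants, were the list with the largest share lower: 14 of 18 lower and 1 higher, median -1.73. ERF6 was at 6.28, 8.96 and 4.83 FPKM at BO and 69.4, 91.9 and 108 FPKM at VG (log2 change -3.57 ± 0.30 (SE), limma adjusted p = 3.13e-07). ZAT11 was at 3.6, 2.02 and 2.7 FPKM at BO and 25.3, 28.1 and 22.2 FPKM at VG (log2 change -2.81 ± 0.28 (SE), limma adjusted p = 1.94e-06). CZF1, a tandem zinc finger factor, was at 41.0, 53.7 and 40.8 FPKM at BO and 199, 206 and 235 FPKM at VG (log2 change -2.22 ± 0.17 (SE), limma adjusted p = 8.14e-08). BO was below VG in every library for all of these. MYB44 was the 1 member higher (0.34), a call lost under a trimmed-mean factor and when any library other than VG ground replicate 3 was left out. TCH3, a calmodulin-like protein induced by touch, was at 17.9, 17.64 and 21.1 FPKM at BO and 481, 584 and 665 FPKM at VG (log2 change -4.85 ± 0.27 (SE), limma adjusted p = 5.75e-09). CML37 and CML38, calmodulin-like proteins of the same list, were lower too (-3.60 and -2.45), while 5 of the 9 touch and calcium genes were higher, among them MSL10, a mechanosensitive channel of the plasma membrane (1.34).

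Other stress genes named by their size followed in the same direction. WRKY51 was at 0.31, 0.26 and 0 FPKM at BO and 124, 116 and 121 FPKM at VG (log2 change -6.68 ± 0.35 (SE), limma adjusted p = 3.61e-09). PROPEP3, precursor of a danger peptide, was at 1.98, 1.60 and 4.46 FPKM at BO and 136, 196 and 186 FPKM at VG (log2 change -5.62 ± 0.54 (SE), limma adjusted p = 1.12e-06). NAC042, a factor known for a role in camalexin control, was at 0.92, 1.19 and 2.75 FPKM at BO and 127, 151 and 128 FPKM at VG (log2 change -5.76 ± 0.40 (SE), limma adjusted p = 5.02e-08). These were nearly silent at BO and well expressed at VG. CYP82C2, a P450 of the indole carbonyl nitrile pathway, was at 0.06, 0.15 and 0.13 FPKM at BO and 28.8, 63.3 and 40.3 FPKM at VG (log2 change -5.27 ± 0.51 (SE), limma adjusted p = 1.33e-06). Glutathione transferases, which conjugate reactive compounds, had 7 of 13 lower and 2 higher (median -0.83), with 1 higher without BO ground replicate 1 or VG ground replicate 1 or 3. GSTF7 was at 24.7, 45.3 and 32.8 FPKM at BO and 1461, 1739 and 1453 FPKM at VG (log2 change -5.50 ± 0.39 (SE), limma adjusted p = 5.2e-08). Its tandem neighbour GSTF6 was at 28.5, 44.4 and 38.5 FPKM at BO and 1026, 1276 and 983 FPKM at VG (log2 change -4.86 ± 0.32 (SE), limma adjusted p = 3.03e-08). The sites were about an order of magnitude or more apart for this pair. They share 9.19% and 9.41% of their 50-base words. GSTF3 (-5.54), GSTU12 (-5.79), the methyltransferases CCOAMT (-6.45) and PXMT1 (-5.37) and the alternative oxidase AOX1D (-4.24) were also lower.

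**Figure D2:**
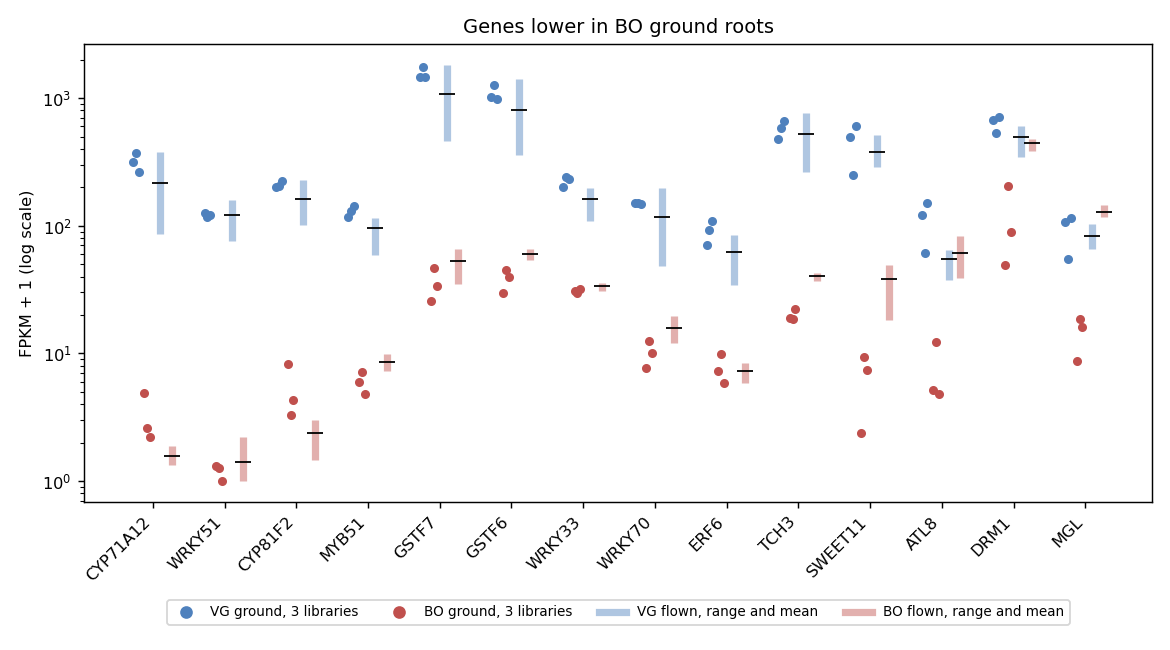
FPKM + 1 on a log axis for 14 genes lower in BO ground roots. Points are the 3 ground libraries of each site, bars the range and black marks the mean of the 3 flown libraries of each site; ATL8, DRM1 and MGL were low in BO ground roots and not in BO flown roots.

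W-boxes, the sites that WRKY factors bind, were searched as TTGACC on both strands in the 250 bases before each gene start of the RefSeq annotation of TAIR10.1, which is Col-0 and not WS sequence. The motif stood in 24.7% of 154 promoters of genes lower by at least 3 log2, in 14.6% of 2975 of all lower genes, in 12.1% of 3377 of higher genes, and in 12.3% of 19620 of tested genes. It stood in 5 of 18 early stress factors (27.8%) but in only 2 of 20 defence genes (10.0%), below the share of tested genes. It was 1 of 9 motifs searched, and the heat shock element (TTCNNGAA or GAANNTTC) was as frequent in the genes lower by at least 3 log2, at 25.3% against 15.8% of tested genes, and stood in 9 of 20 defence and 9 of 28 heat shock promoters. The shares are descriptions, with no test. Among the 15 genes named for the largest decreases 7 hold the W-box, and 2 of the 15 named for the largest increases. The 2 with the largest decreases among those that hold it, chosen for holding it and after their values were seen, are printed with the W-box in capitals. CCOAMT lies on the plus strand (chr1:25487432-25487681) and NAC042 on the minus strand (chr2:17882637-17882886), both written in the direction of the gene.
CCOAMT: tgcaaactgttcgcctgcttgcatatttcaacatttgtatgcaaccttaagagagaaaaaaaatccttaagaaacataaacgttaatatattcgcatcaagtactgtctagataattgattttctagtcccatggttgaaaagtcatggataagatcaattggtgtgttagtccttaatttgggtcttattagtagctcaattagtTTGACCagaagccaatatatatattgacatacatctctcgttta
NAC042: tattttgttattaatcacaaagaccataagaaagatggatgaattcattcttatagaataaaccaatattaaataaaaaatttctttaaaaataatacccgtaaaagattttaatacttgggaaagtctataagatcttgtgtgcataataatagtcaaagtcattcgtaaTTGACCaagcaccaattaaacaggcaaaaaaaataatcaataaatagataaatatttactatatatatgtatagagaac

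Flavonoid genes had 9 of 11 tested members higher and 0 lower, with a median of 2.79 over those 11 and 1.57 over all 16 members with no filter on low values. The other 5 members, among them DFR and LDOX of the anthocyanin steps and the regulator MYB75, did not pass the filter. TT4 (AT5G13930), chalcone synthase, the first enzyme of the pathway, was at 574, 436 and 616 FPKM at BO and 0.64, 2.52 and 0.78 FPKM at VG (log2 change 7.95 ± 0.65 (SE), limma adjusted p = 2.52e-07). It was nearly silent at VG. TT5, chalcone isomerase, was at 129.6, 102 and 116 FPKM at BO and 0.18, 3.55 and 1.02 FPKM at VG (log2 change 5.71 ± 0.50 (SE), limma adjusted p = 5.02e-07). FLS1, flavonol synthase, was at 168, 124 and 157 FPKM at BO and 3.93, 3.61 and 4.62 FPKM at VG (log2 change 4.89 ± 0.50 (SE), limma adjusted p = 2.3e-06). CHIL, a chalcone isomerase-like helper, was at 129.7, 108 and 128 FPKM at BO and 13.8, 11.9 and 10.9 FPKM at VG (log2 change 3.22 ± 0.28 (SE), limma adjusted p = 4.53e-07). No BO value overlapped a VG value in these 4. F3H (2.79), TT7 (3.41) and the flavonol regulator MYB12 (1.57) were higher as well. 4CL3, a coumarate ligase tied to flavonoid synthesis, was at 12.6, 5.85 and 9.71 FPKM at BO and 0.14, 0.66 and 0 FPKM at VG (log2 change 3.01 ± 0.41 (SE), limma adjusted p = 3.54e-05). Of the 16 general phenylpropanoid genes 4 were higher and 3 were lower (median 0.16). Both shares lay above those over all tested genes, 16.9% higher and 15.3% lower.

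Light signalling genes had 11 of 21 higher and 2 lower, and 1 lower when any library other than VG ground replicate 2 was left out. The median was 0.88, and 0.40 over all 24 members with no filter. Without BO ground replicate 1 or VG ground replicate 1, 8 were higher (medians 0.88 and 0.58). Without BO ground replicate 3 or VG ground replicate 2, 9 were higher. ELIP1, an early light-induced protein of plastids, was at 31.7, 19.1 and 31.4 FPKM at BO and 0.71, 0.21 and 1.87 FPKM at VG (log2 change 3.94 ± 0.51 (SE), limma adjusted p = 2.32e-05). BBX24, a B-box factor of the HY5 network, was at 165, 115 and 186 FPKM at BO and 33.4, 30.2 and 55.7 FPKM at VG (log2 change 1.96 ± 0.28 (SE), limma adjusted p = 6.79e-05). HY5 (1.5), ELIP2 (1.82) and the red light receptor PHYB (1.01) were higher too, ELIP2 not without VG ground replicate 1. HYH (1.03) was called, but not when any library other than BO ground replicate 2 was left out, nor under 5 other settings, a trimmed-mean factor and no filter among them. BBX21, a B-box activator of HY5, went the other way, at 75.7, 94.8 and 85.9 FPKM at BO and 184, 172 and 237 FPKM at VG (log2 change -1.19 ± 0.14 (SE), limma adjusted p = 1.03e-05). The G-box, CACGTG, bound by HY5 among others, stood in 5 of 16 flavonoid promoters (31.2%), 8.82% of promoters of higher genes and 7.24% of those of tested genes. Its ACGTG core can overlap the abscisic acid motif ACGTGGC. Of the 15 genes named for the largest decreases 1 holds it. Of the 15 named for the largest increases, 2 hold it and are shown for that, TT4 (chr5:4488226-4488475, plus strand) and ELIP1 (chr3:8085670-8085919, minus strand), here with the G-box in capitals.
TT4: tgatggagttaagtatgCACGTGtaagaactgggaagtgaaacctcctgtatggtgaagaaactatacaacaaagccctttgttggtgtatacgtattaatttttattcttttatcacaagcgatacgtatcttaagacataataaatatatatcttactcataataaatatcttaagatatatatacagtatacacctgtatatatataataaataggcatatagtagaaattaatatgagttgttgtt
ELIP1: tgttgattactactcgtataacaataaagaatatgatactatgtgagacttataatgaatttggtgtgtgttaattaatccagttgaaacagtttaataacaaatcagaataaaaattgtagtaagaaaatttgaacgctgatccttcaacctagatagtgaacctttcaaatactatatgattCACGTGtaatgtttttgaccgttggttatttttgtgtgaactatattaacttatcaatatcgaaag

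Photosynthesis genes, markers of green tissue, had 16 of 29 higher and 0 lower (median 1.56), and their summed level was 745 to 1130 FPKM at BO against 250 to 331 at VG. PSBP-1, of the oxygen-evolving complex, was at 48.5, 56.8 and 66.9 FPKM at BO and 5.53, 3.97 and 5.25 FPKM at VG (log2 change 3.3 ± 0.19 (SE), limma adjusted p = 6.89e-09). LHCB5, an antenna protein of photosystem II, was at 46.3, 39.4 and 45.1 FPKM at BO and 6.41, 7.41 and 6.54 FPKM at VG (log2 change 2.52 ± 0.15 (SE), limma adjusted p = 9.9e-09). LHCB6 (2.46), PSBO1 (1.66), PORB (3.05) and GAPB (3.01) were higher. NPQ4, the PsbS protein of energy dissipation, was at 33.3, 16.7 and 29.2 FPKM at BO and 0, 1.64 and 0.71 FPKM at VG (log2 change 4.00 ± 0.41 (SE), limma adjusted p = 2.44e-06). The plastid regulators GLK1 and GLK2 were not called (-0.04 and 0.44). The part of residual shoot tissue in these values was not tested.

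Heat shock genes had 12 of 23 higher and 0 lower (median 0.70, and 0.57 over all 28 with no filter). HSP70 was at 65.6, 44.1 and 68.3 FPKM at BO and 4.05, 4.05 and 3.89 FPKM at VG (log2 change 3.57 ± 0.43 (SE), limma adjusted p = 1.05e-05). MBF1C, a coactivator of heat tolerance, was at 85.7, 73.1 and 99.4 FPKM at BO and 4.98, 6.5 and 6.79 FPKM at VG (log2 change 3.62 ± 0.42 (SE), limma adjusted p = 9.18e-06). HSP101, the disaggregase, was at 10.6, 7.61 and 10.10 FPKM at BO and 2.49, 2.17 and 1.84 FPKM at VG (log2 change 1.71 ± 0.23 (SE), limma adjusted p = 2.86e-05). HSP90.1 (2.37), HOP3 (1.87) and HSFA2 (1.35), the main heat-induced heat shock factor, were higher, while constitutive factors HSFA1A, HSFA1B and HSFA1D were not called. HSFA2 was not called without BO ground replicate 3. Of the small heat shock proteins, HSP18.2 was higher (1.61), though not without VG ground replicate 3, and HSP17.4, HSP21 and HSP22.0 were below the filter. Genes for protein folding in the endoplasmic reticulum (ER) had 14 of 19 higher and 1 lower (median 1.13). SHD, the ER form of HSP90, was at 258, 185 and 208 FPKM at BO and 82.7, 84.5 and 62.2 FPKM at VG (log2 change 1.49 ± 0.20 (SE), limma adjusted p = 2.98e-05). PDIL1-2, a protein disulfide isomerase, was at 58.3, 42.1 and 48.2 FPKM at BO and 13.6, 20.3 and 12.1 FPKM at VG (log2 change 1.65 ± 0.25 (SE), limma adjusted p = 9.01e-05). BO lay above VG in every library for both. The BIP1 and BIP2 chaperones were higher (1.33 and 1.32), though they share 22.9% and 24.8% of their words with each other. The 1 lower member was BZIP60, a transcription factor of the unfolded protein response, at 37.2, 34.9 and 37.7 FPKM at BO and 90.3, 83.3 and 82.2 FPKM at VG (log2 change -1.20 ± 0.17 (SE), limma adjusted p = 4.95e-05).

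**Figure D3:**
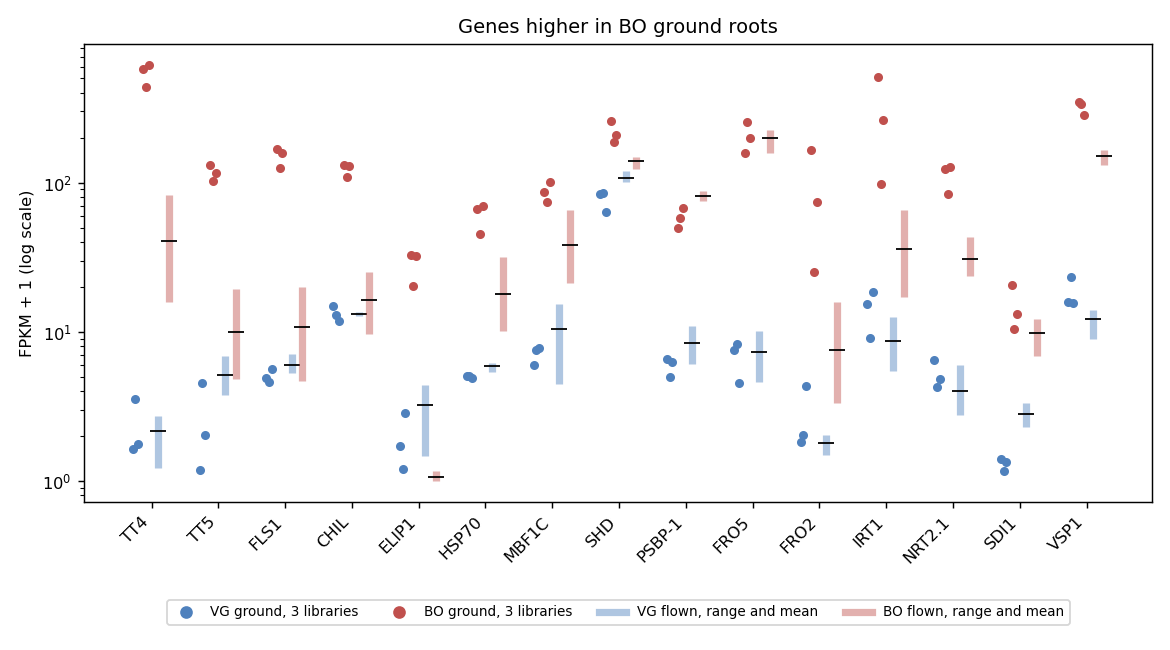
FPKM + 1 on a log axis for 15 genes higher in BO ground roots. Points are the 3 ground libraries of each site, bars the range and black marks the mean of the 3 flown libraries of each site; flavonoid genes were far lower in BO flown than in BO ground roots, and FRO5 was at like levels in both.

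Among nutrient genes, the iron, phosphate and sulfur lists had more members higher than lower at BO, while the copper and nitrogen lists were divided. For iron, 10 of 29 genes were higher and 0 lower (median 0.59), but only 5 without BO ground replicate 1. IRT1, the main iron transporter of the root epidermis, was at 510.4, 96.4 and 264 FPKM at BO and 14.4, 8.12 and 17.5 FPKM at VG (log2 change 4.1 ± 0.71 (SE), limma adjusted p = 0.000366). FRO2, the ferric chelate reductase, was at 164, 24.0 and 73.2 FPKM at BO and 0.82, 1.02 and 3.32 FPKM at VG (log2 change 4.75 ± 0.77 (SE), limma adjusted p = 0.000193). BO replicate 1 was the highest and replicate 2 the lowest for both, and each still lay above all VG libraries. NAS1, nicotianamine synthase, was at 219, 91.4 and 114 FPKM at BO and 19.4, 19.4 and 21.5 FPKM at VG (log2 change 2.66 ± 0.63 (SE), limma adjusted p = 0.00419). BHLH38 (3.04), BHLH100 (2.58) and CYP82C4 (3.81), genes of the iron deficiency response, were higher, while FIT1, the regulator of IRT1 and FRO2, was not called (0.76). The calls of BHLH100 and CYP82C4 were lost without BO ground replicate 1, and that of BHLH100 also without BO ground replicate 3.

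Copper genes moved in both directions. FRO5, a copper reductase induced by copper shortage through SPL7, was at 156, 254 and 199 FPKM at BO and 6.53, 7.23 and 3.52 FPKM at VG (log2 change 4.94 ± 0.34 (SE), limma adjusted p = 3.72e-08). CSD2, the plastid copper/zinc superoxide dismutase, was at 40.8, 36.1 and 36.6 FPKM at BO and 135, 170.1 and 123 FPKM at VG (log2 change -1.88 ± 0.15 (SE), limma adjusted p = 1.53e-07). CSD1, its cytosolic relative, was at 84.5, 54.8 and 78.3 FPKM at BO and 373, 429 and 265 FPKM at VG (log2 change -2.27 ± 0.22 (SE), limma adjusted p = 1.29e-06). FRO5 was high where both CSD genes were low. The iron superoxide dismutase FSD1 (1.14), the transporter COPT2 (0.90) and the chaperone CCH (0.69) were higher, COPT1 was lower (-1.13, but not without BO ground replicate 2 or 3 or VG ground replicate 1 or 3), and SPL7 and FRO4 were not called (0.23 and -0.16). MT3, a metallothionein, was at 525, 622 and 440.1 FPKM at BO and 2506, 2263 and 2686 FPKM at VG (log2 change -2.24 ± 0.16 (SE), limma adjusted p = 6.26e-08). In the whole list of 23 zinc, copper and metallothionein genes 7 were higher and 6 lower (median -0.16, and 0.03 without VG ground replicate 3).

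Phosphate starvation genes had 17 of 32 higher and 6 lower (median 0.79). IPS1, a noncoding RNA that sequesters miR399, was listed at 0 in all 3 VG libraries and was at 19.5, 32.6 and 10.7 FPKM at BO. AT4, its relative, was at 112, 117 and 102 FPKM at BO and 39.9, 43.3 and 32.5 FPKM at VG (log2 change 1.5 ± 0.22 (SE), limma adjusted p = 6.86e-05). PAP10, a secreted acid phosphatase, was at 22.7, 18.8 and 20.5 FPKM at BO and 4.31, 5.49 and 3.15 FPKM at VG (log2 change 2.04 ± 0.27 (SE), limma adjusted p = 2.71e-05). SPX1, a phosphate sensor, was higher (3.1). WRKY75 was the most decreased member, at 10.5, 13.4 and 10.4 FPKM at BO and 90.6, 108 and 104 FPKM at VG (log2 change -3.04 ± 0.28 (SE), limma adjusted p = 6.81e-07), and it is also induced by stress. PHT1;1 and PHT1;2, phosphate transporters, were higher (1.62 and 2.24) but share 42.4% and 45.4% of their words. P1BS, the site of the phosphate regulator PHR1, searched as GNATATNC, stood in 8 of 33 phosphate promoters (24.2%) and 5.46% of all promoters. It stood in 5.66% of promoters of higher genes and 6.22% of those of lower genes. The heat shock element stood in 10 of 33 phosphate promoters (30.3%), against 15.8% of those of tested genes. AT4, chosen because it holds P1BS, has that motif once (chr5:894332-894581, plus strand), in capitals.
AT4: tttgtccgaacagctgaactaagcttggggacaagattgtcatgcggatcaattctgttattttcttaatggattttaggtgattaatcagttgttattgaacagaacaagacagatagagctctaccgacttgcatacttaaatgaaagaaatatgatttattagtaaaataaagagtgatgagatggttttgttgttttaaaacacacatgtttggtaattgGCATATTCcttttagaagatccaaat

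Sulfur genes had 13 of 17 higher and 0 lower (median 1.00). Of these 17, 9 were higher without BO ground replicate 1 and 10 without VG ground replicate 1. Without BO ground replicate 3 or VG ground replicate 3, 11 were higher. SDI1, a gene induced by sulfur deficiency, was at 19.6, 9.43 and 12.1 FPKM at BO and 0.40, 0.16 and 0.33 FPKM at VG (log2 change 3.45 ± 0.43 (SE), limma adjusted p = 1.55e-05). SULTR4;2, a vacuolar sulfate exporter, was at 12.7, 16.1 and 11.4 FPKM at BO and 2.21, 5.71 and 5.39 FPKM at VG (log2 change 1.47 ± 0.29 (SE), limma adjusted p = 0.00105). Root uptake transporters SULTR1;1 (1.62) and SULTR1;2 (1.00) were higher, the latter not when any library other than VG ground replicate 2 was left out or with no filter on low values. Nitrogen genes divided, 9 of 35 higher and 8 lower (median 0.00). NRT2.1, the main high-affinity nitrate transporter, was at 123, 83.2 and 127 FPKM at BO and 5.44, 3.27 and 3.80 FPKM at VG (log2 change 4.43 ± 0.51 (SE), limma adjusted p = 7.68e-06). NRT1.5, which loads nitrate into the xylem, was at 356, 269.8 and 310.2 FPKM at BO and 2132, 1768 and 1993 FPKM at VG (log2 change -2.65 ± 0.20 (SE), limma adjusted p = 1.06e-07). BT1, a nitrate-responsive scaffold protein, was at 21.9, 72.0 and 38.0 FPKM at BO and 359, 281 and 427 FPKM at VG (log2 change -3.13 ± 0.47 (SE), limma adjusted p = 0.000101). The high-affinity transporter was thus high where the xylem loader was low, while the nitrate reductases NIA1 and NIA2 were not called (-0.09 and -0.50). NRT2.6, a further member of the NRT2 family, was at 29.7, 16.2 and 20.9 FPKM at BO and 0, 0.27 and 0.16 FPKM at VG (log2 change 4.31 ± 0.32 (SE), limma adjusted p = 7.13e-08).

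Genes induced by darkness and sugar shortage were lower at BO, 13 of 23 against 2 higher (median -0.85), and 1 higher whichever of the 6 libraries was left out. Without BO ground replicate 1 or VG ground replicate 3, 10 were lower (medians -0.72 and -0.68). ATL8, a ubiquitin ligase gene, was at 4.18, 11.2 and 3.81 FPKM at BO and 121, 60.6 and 149.5 FPKM at VG (log2 change -3.95 ± 0.55 (SE), limma adjusted p = 5e-05). DRM1, a dormancy gene, was at 48.2, 202 and 88.6 FPKM at BO and 676, 531 and 706 FPKM at VG (log2 change -2.72 ± 0.39 (SE), limma adjusted p = 6.55e-05). MGL, methionine gamma-lyase, was at 7.70, 17.65 and 15.1 FPKM at BO and 105, 53.9 and 114 FPKM at VG (log2 change -2.67 ± 0.42 (SE), limma adjusted p = 0.000171). BZIP1, a transcription factor of low energy, was at 6.47, 19.5 and 16.8 FPKM at BO and 59.9, 42.9 and 76.4 FPKM at VG (log2 change -2.08 ± 0.35 (SE), limma adjusted p = 0.000282). In each, BO replicate 2 was the highest BO library and VG replicate 2 the lowest VG library, and the groups did not overlap. ASN1, asparagine synthetase, also a dark-inducible gene, was higher (2.76). SWEET11, a sucrose exporter, was at 1.39, 8.33 and 6.40 FPKM at BO and 494, 249 and 599 FPKM at VG (log2 change -6.26 ± 0.62 (SE), limma adjusted p = 1.54e-06). SWEET12, its close partner, was at 0.51, 6.67 and 1.95 FPKM at BO and 126, 56.4 and 174 FPKM at VG (log2 change -5.06 ± 0.60 (SE), limma adjusted p = 1e-05). Both showed the same order of libraries. ASPGB1, an asparaginase, was at 1.76, 2.52 and 2.65 FPKM at BO and 159, 123 and 169 FPKM at VG (log2 change -5.51 ± 0.37 (SE), limma adjusted p = 3.03e-08). Starch enzymes had 7 of 9 higher and 0 lower, and 4 without BO ground replicate 2. ADG1, the small subunit of the starch synthesis enzyme AGPase, was at 26.0, 19.6 and 23.7 FPKM at BO and 7.91, 10.3 and 10.7 FPKM at VG (log2 change 1.18 ± 0.22 (SE), limma adjusted p = 0.00063).

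Genes of growth were higher. Expansins, xyloglucan enzymes and primary wall cellulose synthases had 13 of 22 higher and 1 lower (median 1.05), with 2 lower under a trimmed-mean factor or without BO ground replicate 1. XTH31 was at 437, 262 and 318 FPKM at BO and 32.5, 82.0 and 49.5 FPKM at VG (log2 change 2.68 ± 0.33 (SE), limma adjusted p = 1.37e-05). EXPA10 was at 27.3, 20.09 and 21.8 FPKM at BO and 2.95, 3.66 and 1.18 FPKM at VG (log2 change 2.80 ± 0.29 (SE), limma adjusted p = 2.96e-06). CESA1, a cellulose synthase subunit, was at 142, 144 and 143 FPKM at BO and 63.6, 67.4 and 69.8 FPKM at VG (log2 change 1.08 ± 0.11 (SE), limma adjusted p = 2.34e-06). XTH24 was the exception, at 13.8, 22.6 and 18.3 FPKM at BO and 123, 64.7 and 115 FPKM at VG (log2 change -2.37 ± 0.29 (SE), limma adjusted p = 1.56e-05). Markers of dividing cells had 12 of 22 higher and 0 lower (median 0.66), and 7 higher and 1 lower without BO ground replicate 1. CDKB1;1 was at 38.4, 25.7 and 24.0 FPKM at BO and 13.1, 15.5 and 6.98 FPKM at VG (log2 change 1.28 ± 0.27 (SE), limma adjusted p = 0.00204). Root hair markers had 10 of 20 higher and 1 lower, with 7 higher without BO ground replicate 2 or 3 or VG ground replicate 3, and 0 lower without those or VG ground replicate 2. Their summed level overlapped between the sites, 541 to 642 FPKM at BO and 295 to 657 at VG. EXPA7, a root hair expansin, was at 30.1, 40.7 and 49.0 FPKM at BO and 11.4, 17.1 and 5.26 FPKM at VG (log2 change 1.84 ± 0.30 (SE), limma adjusted p = 0.000204). Endodermis markers had 5 of 8 higher and 1 lower. CASP5, of the Casparian strip, was the 1 lower, at 1.68, 3.96 and 2.63 FPKM at BO and 18.1, 22.8 and 13.7 FPKM at VG (log2 change -2.37 ± 0.39 (SE), limma adjusted p = 0.000234). Root cap markers had 0 of 5 called, and their summed level was low, 11.8 to 18.5 FPKM at BO and 17.7 to 26.8 at VG; without VG ground replicate 2, 1 was called. Xylem markers had 1 of 17 called, ACL5 (-0.99), with 2 without BO ground replicate 2 and 3 without VG ground replicate 2.

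ER body genes, for the myrosinase-filled bodies of the root epidermis, had 6 of 8 higher and 1 lower (median 1.13). PYK10, their main beta-glucosidase and one of the most abundant root transcripts, was at 7157, 7599.7 and 8016 FPKM at BO and 2688, 3527 and 2914 FPKM at VG (log2 change 1.33 ± 0.26 (SE), limma adjusted p = 0.000873). Jasmonate genes had 3 of 22 higher and 7 lower (median -0.02). VSP1, a vegetative storage protein, was at 349, 337 and 284 FPKM at BO and 14.8, 22.5 and 14.5 FPKM at VG (log2 change 4.17 ± 0.19 (SE), limma adjusted p = 3.07e-10). VSP2, its neighbour, was at 39.9, 21.8 and 16.6 FPKM at BO and 0.15, 0.33 and 0.02 FPKM at VG (log2 change 4.45 ± 0.38 (SE), limma adjusted p = 3.67e-07). JAZ1, a repressor of the pathway, was at 29.1, 44.6 and 32.0 FPKM at BO and 83.3, 93.1 and 107 FPKM at VG (log2 change -1.41 ± 0.25 (SE), limma adjusted p = 0.000391). The storage proteins were thus higher where the repressor, the synthesis genes LOX4 (-1.20) and AOS (-0.76) were lower. TH8, a thioredoxin, was at 48.0, 30.2 and 30.8 FPKM at BO and 0.33, 0.04 and 0.37 FPKM at VG (log2 change 4.88 ± 0.36 (SE), limma adjusted p = 7.13e-08). Of 15 hypoxia genes 6 were higher and 1 lower. HRE1, a hypoxia factor, was the 1 lower, at 17.7, 27.1 and 24.6 FPKM at BO and 96.3, 90.5 and 112 FPKM at VG (log2 change -2.08 ± 0.28 (SE), limma adjusted p = 3.51e-05).

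Clock genes showed no single direction. Of 13 morning-phased genes 5 were higher and 3 lower (median 1.07), with 3 higher without BO ground replicate 3 or VG ground replicate 1 or 2, and 1 lower without VG ground replicate 3. LNK1 was at 8.31, 5.50 and 9.37 FPKM at BO and 0.36, 0.04 and 0.54 FPKM at VG (log2 change 2.72 ± 0.33 (SE), limma adjusted p = 1.09e-05). RVE2 was at 69.6, 89.2 and 118 FPKM at BO and 594, 493 and 693 FPKM at VG (log2 change -2.69 ± 0.30 (SE), limma adjusted p = 4.79e-06). Of 11 evening-phased genes 2 were higher, GI and LUX, and 1 lower, BOA, with 2 lower without VG ground replicate 2. GI was at 8.65, 13.5 and 7.33 FPKM at BO and 0.68, 0.30 and 0.61 FPKM at VG (log2 change 2.79 ± 0.46 (SE), limma adjusted p = 0.000253). BOA was at 4.06, 4.66 and 2.54 FPKM at BO and 18.5, 11.7 and 15.9 FPKM at VG (log2 change -1.79 ± 0.26 (SE), limma adjusted p = 6.38e-05). GRP7, an RNA-binding clock output, was at 916, 1081 and 562 FPKM at BO and 2261, 2294 and 2519.5 FPKM at VG (log2 change -1.52 ± 0.32 (SE), limma adjusted p = 0.00185). Its site order was uniform, BO below VG. In each hormone list named here most genes were not called. Ethylene genes had 3 of 22 higher and 7 lower (45.5% called). Auxin transport and synthesis genes had 5 of 18 higher and 2 lower (38.9%), with 3 and 1 without BO ground replicate 1 or 3 and 1 lower without VG ground replicate 1 or 3. Abscisic acid genes had 3 of 19 higher and 4 lower (36.8%), with 1 higher without BO ground replicate 1 or VG ground replicate 1 or 2. These shares, and that of the cytokinin genes given next, lay above the 32.2% over all genes. Cytokinin genes had 2 of 20 higher and 5 lower (35.0%), with 3 lower without BO ground replicate 2 or VG ground replicate 2 and 2 without BO ground replicate 3. Gibberellin genes had 3 of 18 higher and 2 lower (27.8%), with 4 lower without VG ground replicate 2. Brassinosteroid genes had 1 of 12 higher and 2 lower, with 1 lower whichever of the 6 libraries was left out. Auxin response genes had the lowest share, 4 of 24 higher and 1 lower (20.8%). NIT2, a nitrilase that can form auxin, was at 69.9, 75.3 and 79.4 FPKM at BO and 415, 263 and 417 FPKM at VG (log2 change -2.24 ± 0.24 (SE), limma adjusted p = 3.42e-06). GA3OX2, a gibberellin synthesis enzyme, was at 13.1, 9.61 and 13.5 FPKM at BO and 0.63, 0.33 and 1.18 FPKM at VG (log2 change 2.95 ± 0.55 (SE), limma adjusted p = 0.000692).

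Genes often taken as stable were not so between the sites. Of 9 reference genes 4 were higher and 3 lower. GAPC1, a glycolytic dehydrogenase, was at 1647, 975 and 1374 FPKM at BO and 557, 615 and 548 FPKM at VG (log2 change 1.18 ± 0.19 (SE), limma adjusted p = 0.00017). ACT2, an actin, was at 486, 529 and 514 FPKM at BO and 975, 865 and 954 FPKM at VG (log2 change -0.87 ± 0.11 (SE), limma adjusted p = 1.7e-05). ACT8 (-0.82) and UBQ10 (-0.77) were lower, and YLS8 was not called (-0.18). A trimmed-mean factor per library moved the median change of all genes from 0.04 to 0.01.

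The same sites were compared in flown WS roots, which share no library with the ground roots, only the pooled spread. There 4194 genes (20.8%) were called, 2023 higher (10.1%) and 2171 lower (10.8%). Of the genes higher on the ground, 1081 (31.7%) were called higher after flight, 53.4% of the flown calls of that direction. Of those lower, 1176 (38.3%) were called lower, 54.2% of the flown calls. The difference between ground and flown was itself called for 1375 genes (6.83%), 644 with the ground change above the flown one (3.2%) and 731 below (3.63%). That count depended on single libraries: it was 467 without BO ground replicate 1, 530 without VG ground replicate 3, 649 without VG ground replicate 1 and 780 without BO ground replicate 3, and 616, 715 and 881 without flown VG replicate 2, BO replicate 3 and BO replicate 1. A trimmed-mean factor gave 521 above and 885 below. Of the higher ground genes 462 had a difference in that direction, and of the lower ones 533.

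Many defence, early stress and photosynthesis genes were called in the same direction in both. In flown roots 10 defence genes were lower, 9 of them lower on the ground, and the difference was called for 1, EDS5, a call lost when any of 9 of the 12 libraries was left out. Of the early stress factors 12 were lower in both, with a called difference for 1. Of the photosynthesis genes 15 were higher in both, and 3 of 29 had a called difference, LHCB5 with the ground change above the flown one and 2 below, PSBO1 among them. The PSBO1 difference was lost when any of 10 of the 12 libraries was left out, and under 5 other settings. CYP71A12 ranged from 0.33 to 0.89 FPKM in BO and 85.1 to 377 in VG flown roots, and its ground minus flown difference was not called (limma adjusted p = 0.911). FRO5 ranged from 157 to 225 in BO and 3.62 to 9.09 in VG flown roots. Flavonoid, ER folding and sugar starvation genes had more members with a called difference. So did nitrogen genes, 6 with the ground change above the flown one and 6 below, and heat shock genes, 6 above and 1 below. Of these, HSFA7A, HOP3, NIA1, GDH2, NRT1.5, RFNR2 and G6PD3 kept the call whichever of the 12 libraries was left out. The other heat shock and nitrogen calls were each lost without at least 1 library, that of HSP70 with any of 9 left out. TT4 ranged from 14.8 to 81.8 FPKM in BO flown roots, far below the BO ground level, and 0.22 to 1.73 in VG (difference 4.02 log2, limma adjusted p = 0.0181). The TT4 difference was not called without BO ground replicate 1 or VG ground replicate 3. Of the flavonoid genes, 7 had a called difference, all with the ground change above the flown one (5 to 8 with 1 library left out), and in flown roots 1 was higher and 1 lower. Of the ER folding genes, 8 had a called difference and 0 were higher in flown roots. That count rested on single libraries: 0 were called without BO ground replicate 1 or VG ground replicate 3, 1 without flown BO replicate 3 or flown VG replicate 2, 3 without VG ground replicate 1, 4 without BO ground replicate 3 and 5 without flown BO replicate 1. Of the sugar starvation genes, 17 had a called difference, all with the ground change below the flown one (13 to 19 with 1 library left out). Of the 13 lower on the ground, 5 were higher at BO in flown roots, 7 were not called there and 1 was lower. The other 8 genes higher in flown roots were 2 that were higher on the ground too, ASN1 among them, and 6 not called on the ground. ATL8 ranged from 38.3 to 81.5 FPKM in BO and 36.9 to 63.5 in VG flown roots (difference -4.10 log2, limma adjusted p = 0.00808).

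**Figure D4:**
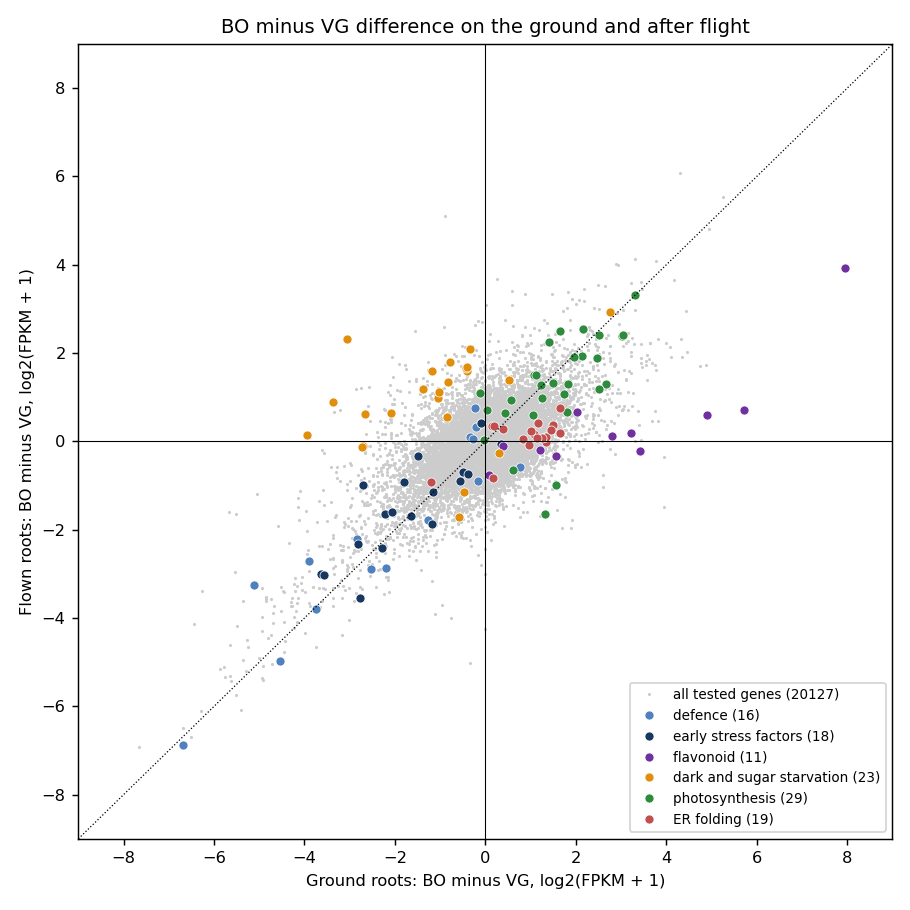
BO minus VG change in log2(FPKM + 1) of the 20127 tested genes in ground (x) and flown (y) WS roots, with the tested members of 6 lists in colour and the line of equal change dotted. Most defence and early stress genes lie near that line, most flavonoid and ER folding genes near 0 on y with TT4 above them, and most sugar starvation genes in the upper left.

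Ground roots of other genotypes at the same sites are set beside these without a test. In sku5 ground roots at BO, TT4 ranged from 439 to 743 FPKM, FRO5 from 121 to 147, GSTF7 from 17.8 to 25.5 and CYP71A12 from 0.03 to 4.95. TT4 and CYP71A12 reached the WS ground range of that site, while FRO5 and most GSTF7 values lay below it. In Col-0 ground roots at VG, from a table normalized separately, TT4 ranged from 2.44 to 3.6, GSTF7 from 292 to 446 and CYP71A12 from 24.4 to 44.98 FPKM. For GSTF7 and CYP71A12 every Col-0 value lay below the WS ground libraries of VG and above those of BO.

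Several limits touch named genes. Whether counting used strand is not stated, and 91 of 420 called genes examined overlap an annotated gene on the other strand, TT4, TCH3, WRKY33, CYP71A13, MBF1C, NRT1.5, MGL, CSD1, MT3 and PYK10 among them. Their reads cannot be assigned to 1 strand here. Of the same 420 genes, 11 share at least 10% of their 50-base words with another gene.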

How the data were processed

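Per the submitters' processing notes, Trimmomatic 0.36, FastQC 0.11.4, MultiQC 1.1, STAR 2.7.3a, RSEM 1.2.31 and DESeq2 were used. The authors' version of the last was not found there, and the genome build is not given in the sources used here. The authors deposited FPKM values, 1 table for WS and sku5 (32844 genes, 18 libraries) and 1 for Col-0. That the deposited values are FPKM, from RSEM gene results, was read from column names and values. Low values did not give whole reads back. Mean counts in the authors' deposited table of changed genes gave only the rough depth scale.

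Genes reaching 1 FPKM in 3 libraries or more were fitted in limma 3.58.1 (R 4.3.3), with its intensity trend, on log2(FPKM + 1) and with all 18 libraries in 6 groups (12 residual degrees of freedom). The pseudocount was 1 FPKM. Tests were two-sided, with Benjamini-Hochberg adjustment over all 20127 genes. The fit was checked on simulated data. Contrasts were BO minus VG on the ground, in flown roots, and their difference. The Col-0 table was normalized separately and not tested against WS.

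Gene lists (45, with 844 genes, 827 matched to RefSeq names and 784 tested) and the comparison were chosen with earlier results of these data known. Genes named were the 15 largest called changes each way with groups that do not overlap and a higher-group mean of at least 15.7 FPKM, the median over tested genes, in every list the called genes with the lowest p (no more than 4), and any clock, photosynthesis or reference gene. Other list members were named after their values were seen, and the printed promoters were chosen for holding a motif. Promoters are 250 bases of RefSeq TAIR10.1. Figures used matplotlib 3.10.9. ERCC spike-ins were not analysed here.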

Additional observations from a re-analysis of the deposited data

Results flagged for a closer look

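The BO minus VG change differed between ground and flown roots, by the test of the difference in limma, for 1375 genes. The values that follow are the ground change minus the flown change in log2 units for named genes with a called difference, so a positive value means that the ground change was the higher of the pair. Flavonoid and light genes were TT4 (4.02), TT5 (4.99), FLS1 (4.29), CHIL (3.03), 4CL3 (2.32), ELIP1 (5.41) and BBX21 (-1.28). Chaperones were HSP70 (2.17), HOP3 (1.74), HSP101 (1.28), SHD (1.12), P58IPK (1.18) and PDIL1-2 (1.45). Genes of sugar shortage and sugar transport were ATL8 (-4.10), DRM1 (-2.59), MGL (-3.29), BZIP1 (-2.73), SWEET12 (-3.87) and STP4 (-1.80), all with the ground change below the flown one. Nitrogen and metal genes were NRT2.6 (-1.77), NRT1.5 (-1.48), BT1 (-2.58), ASPGB1 (-3.86) and MT3 (-1.16). Stress genes were WRKY40 (-1.71), GSTF3 (-2.59), CCOAMT (-2.32), OXS3 (-2.67), HRE1 (-2.26), TH8 (3.15), VSP2 (2.43) and MSL10 (1.68). Hormone genes were EBF2 (-1.73), EIN3 (-0.66), IAA17 (1.03), IAA14 (1.70) and NIT2 (-2.97). Wall, water and growth genes were EXPA10 (1.71), XTH31 (1.61), XTH24 (-1.68), TIP2;3 (-2.03) and PCNA1 (1.69). Markers of photosynthesis, endodermis, xylem and phloem were LHCB5 (1.33), PSBO1 (-0.84), CASP5 (-2.37), ACL5 (-1.40), PP2-A1 (-1.80) and SUC2 (-1.62). The clock gene LUX was at 2.66. The actins were ACT2 (-0.80) and ACT8 (-1.02). SUC2 lost its ground call without BO ground replicate 1 or 3, or VG ground replicate 1 or 3. Of these 51 named genes, 30 kept a called difference whichever of the 12 libraries was left out, and 21 lost it without at least 1. The 21 were TT4, 4CL3, HSP70, HSP101, SHD, P58IPK, PDIL1-2, NRT2.6, CCOAMT, BT1, LUX, VSP2, MSL10, EIN3, IAA17, EXPA10, XTH31, XTH24, PSBO1, CASP5 and SUC2. The call was lost with any of 10 libraries left out for PSBO1, 9 for HSP70 and XTH31, and 8 for EIN3.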

How the results depend on the processing

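The ground comparison called 6481 genes, and between 6103 and 7610 under 9 other settings. With 1 library left out it called 4718 to 6069. A trimmed-mean factor gave 3132 higher and 3365 lower, where the deposited scale gave 3407 and 3074. The flown comparison called 3023 to 3522 with 1 library left out, against 4194. The ground minus flown difference was the least stable, 467 to 1878 against 1375. It fell to 467 without BO ground replicate 1, 530 without VG ground replicate 3, 649 without VG ground replicate 1 and 780 without BO ground replicate 3. Without a flown library it was 616 (VG replicate 2), 715 (BO replicate 3) and 881 (BO replicate 1). The cause was not tested. Under a trimmed-mean factor the ground change was above the flown one for 521 genes and below for 885. Of 182 genes named by the rule, 176 were called under every setting tried and none changed direction. They were picked as called genes with large changes or low p in the same data, which favours that outcome. It does not extend to genes named outside the rule, such as EDS5, whose call could be lost. With replicate number as a block the ground comparison called 6123 genes (3203 higher and 2920 lower), the flown comparison 3837 and the difference 998. Same-numbered ground libraries did not deviate together (r of 0.0118, -0.128 and 0.00127), so the numbers were not taken as pairs. Leaving out the 3 libraries that stood apart was chosen after seeing the data. Depth per library is unknown, and low genes rest on few reads.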
